A study of Drosophila melanogaster with 2 samples.

Results

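The heat shock proteins, Hsc70s and chaperonins are the protein-folding machines of the cell and the co-chaperones that steer them. They were picked by name from the 17559 genes of the table, as every gene whose name begins with Hsp and a digit, Hsc70, DnaJ, CCT, T-cp1 or Tcp-1, together with *l(2)efl*, *Hsf*, *Hop*, *Droj2*, *mrj* and *stv*. The endoplasmic reticulum chaperone *Hsc70-3* was left out by this rule. It gave 36 genes. Of these, 18 were placed in a stress-induced class (the *Hsp70* copies, *Hsp68*, the small heat shock proteins, *Hsp67Bb*, *Hsp83*, *DnaJ-1* and *stv*) and 18 in a constitutive class (the *Hsc70* genes, HSP60, CCT, the other J-domain proteins, *Hop* and *Hsf*).

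Chaperones bind unfolded or partly folded proteins and keep them from clumping. HSP70 proteins work in cycles of ATP hydrolysis that J-domain proteins start and that BAG-domain and HSP110 proteins reset, and HSP90 takes over clients from HSP70 through the bridging protein Hop. Chaperonins are barrels, HSP60 in mitochondria and CCT in the cytosol, and small heat shock proteins hold unfolded proteins without ATP. In flies, heat or unfolded protein activates the transcription factor Hsf, which binds the promoters of the heat shock genes. The *Hsp70* copies are nearly silent without stress and rise steeply with it, which makes them the usual sign of a heat shock response. *Hsp83* and *DnaJ-1* are expressed without stress and rise further, and the small heat shock proteins are also switched on during development and in the germline.

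Each library was made from RNA of 10 whole flies, pooled, and there is 1 library of *w1118* control flies and 1 of flies heterozygous for a *taf1* mutation. The mutant flies (w1118; taf1[1]/+) came from a cross of a balanced stock (taf1[1] red[1] e[1] over TM3, Sb[1]) to the control line, so that their mutant chromosome 3 carries the *red* and *e* marker alleles as well, and *w1118* is common to both groups. Neither the labels nor the study's methods give the age, the sex or the rearing temperature of the flies. The question put to the chaperone genes was whether the stress-induced members differed between the libraries in another way than the constitutive members. A single library per genotype allows no replicate check and no p-value, each interval covers counting error only, and every comparison is one of 2 libraries. In RNA of whole flies, fewer cells of a type and less RNA per cell cannot be told apart.

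The libraries held 16753242 reads (control) and 32364756 reads (mutant). Levels are in CPM, the usual unit of reads relative to library size, scaled with TMM, a trimmed mean over the ratios of all genes. A gene listed at 0 is given as such, with no upper limit, since the eye and muscle markers *Arr2* and *TpnC4* were also listed at 0. Log2 ratios are mutant over control. On the TMM scale the median log2 ratio of the 11606 measured genes (at least 20 reads in both libraries together) was 0.0064, and the range from their lower to their upper quartile was -0.26 to 0.33. Scaling by total reads moves every log2 ratio, and this median, by -0.26, so the TMM values describe a gene relative to the typical gene. *Taf1*, the mutated gene, had 80.7 CPM in control and 58.02 CPM in the mutant library (log2 ratio -0.48). Testis markers were plentiful in both libraries, at a summed 3984 and 4358 CPM with 16 of 18 genes measured and *sa* and *fzo* listed at 0. The yolk and egg markers summed to 19.0 and 16.1 CPM with 5 of 8 measured. Muscle markers summed to 28374 and 33818 CPM (15 of 16 measured, *TpnC4* at 0), fat body markers to 1369 and 1949 CPM (10 of 10), and eye markers to 8192 and 8294 CPM (11 of 12, *Arr2* at 0). The part of these tissues in the chaperone values was not tested.

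Taken over the 36 genes, the chaperones made up 0.888% of all control reads (95% exact binomial interval 0.883 to 0.892) and 0.794% of all mutant reads (0.791 to 0.797). Their summed level was 8879 CPM in control and 9531 CPM in the mutant library, a log2 ratio of 0.10 (0.09 to 0.11) that turned to -0.16 with scaling by total reads and to -0.22 with scaling to the genes that served as qPCR references (*RpL32*, *eEF1alpha2* and *Act5C*). Of the 36 genes, 28 were measured, 2 had fewer than 20 reads and 6 were listed at 0 in both libraries. A ratio of at least 1.5-fold whose 95% interval left out equality counted as a call. By this rule 2 members were higher, where 12.8% of all measured genes were, and 2 were lower, where 6.16% were. In either direction 14.3% of the measured members were called, beside 19.0% of all measured genes. The members called higher were *Hsp60* and *Hsp70Bc*, and those called lower were *Hsp67Bb* and *Hsp70Bb*. Of these, *Hsp60* had 16929 reads and no exonic base shared with another gene, while the others had between 29 and 348 reads and are either near-identical copies or overlapped.

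With total reads, 1 member was higher and 4 were lower, where 7.00% and 19.1% of all measured genes were, 26.1% in either direction. With the qPCR reference genes, 1 was higher and 5 were lower, beside 6.21% and 23.7%, 29.9% in either direction. The authors' own factors gave 1 higher and 2 lower members beside 11.6% and 7.41%. The median of ratios of DESeq2 and the upper quartile each gave 2 and 2, beside 12.7% higher for both and 6.29% and 6.27% lower. At a limit of 2-fold, *Hsp70Bc* and *Hsp70Bb* were the calls, beside 5.76% of all measured genes higher and 1.70% lower, 7.46% together.

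The plot of ratios by family gives all 28 measured members. Their 24 uncalled genes ran from -0.40 (*stv*) to 0.57 (*Hsp23*), a range that the fold limit bounds in part. The intervals lay wholly above 0 for 13 of the 28 genes and wholly below 0 for 10, with no fold limit, beside 31.9% and 30.4% of all measured genes (62.4% together).

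**Figure D1:**
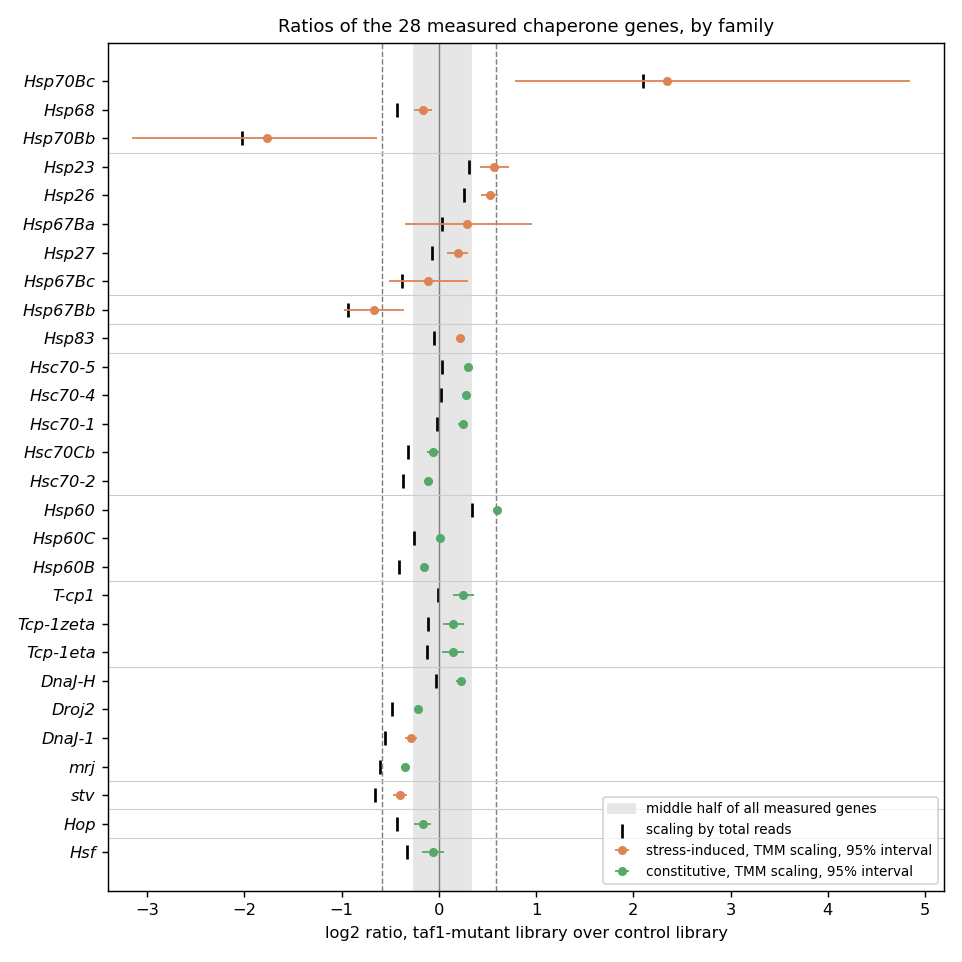
Log2 ratio of the taf1-mutant library over the control library (x axis) for each of the 28 measured chaperone genes (y axis, grouped by family), as points with exact 95% counting intervals under TMM scaling, and as black ticks under scaling by total reads; the grey band runs from the lower to the upper quartile of all measured genes and the dashed lines mark 1.5-fold. Hsp60 sits just past the upper dashed line at 0.60, and Hsp23 and Hsp26 just inside it. Hsp67Bb sits past the lower dashed line at -0.67, and only the sparse Hsp70 copies lie far from 0.

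The stress-induced class had a median log2 ratio of 0.04 over 12 measured members, with 1 higher and 2 lower. The constitutive class had a median of 0.08 over 16 measured members, with 1 higher and 0 lower. The calls were 25% and 6.25% of the measured members of the classes, beside 19.0% of all measured genes. Those of the stress-induced class were the sparse *Hsp70Bc* and *Hsp70Bb*, in opposite directions, and the overlapped *Hsp67Bb*. The *Hsp70Bc* and *Hsp70Bb* rows reached the limit of 20 reads only through the library where each was high. The medians differed by -0.04, and the ranges of the classes, -1.77 to 2.34 and -0.34 to 0.60, overlapped over the whole of the second. The direction of this difference was not stable. It was 0.13 with a minimum of 1 read, 0.12 with the *Hsp70* copies summed, 0.12 without these copies and *Hsp67Bb*, and 0.26 with the stress-induced class limited to the *Hsp70* copies, *Hsp68* and the small heat shock proteins of 67B. It was -0.13 against genes of like transcript length. Without the members set as testis-linked (*Hsp60B*, *Hsp60C*, *Hsp60D*, *DnaJ-60* and *Hsc70-2*) it was -0.11. No difference between the classes can be read from the medians. A measure that no scaling can move is the share of chaperone reads that came from the stress-induced class. It was 22.3% in control (22.1 to 22.5) and 22.5% in the mutant library (22.3 to 22.7). These intervals overlap. Most of these reads are from *Hsp83*, and without this gene the share was 9.38% (9.22 to 9.54) in control and 8.38% (8.27 to 8.50) in the mutant library, so it was smaller in the mutant library beyond counting error. The class did not move as a block. Small heat shock proteins took a larger share of the chaperone reads in the mutant library, 2.596% (2.53 to 2.66) against 2.10% (2.03 to 2.17), while *stv* took a smaller one, 1.35% (1.31 to 1.40) against 1.91% (1.84 to 1.98).

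**Figure D2:**
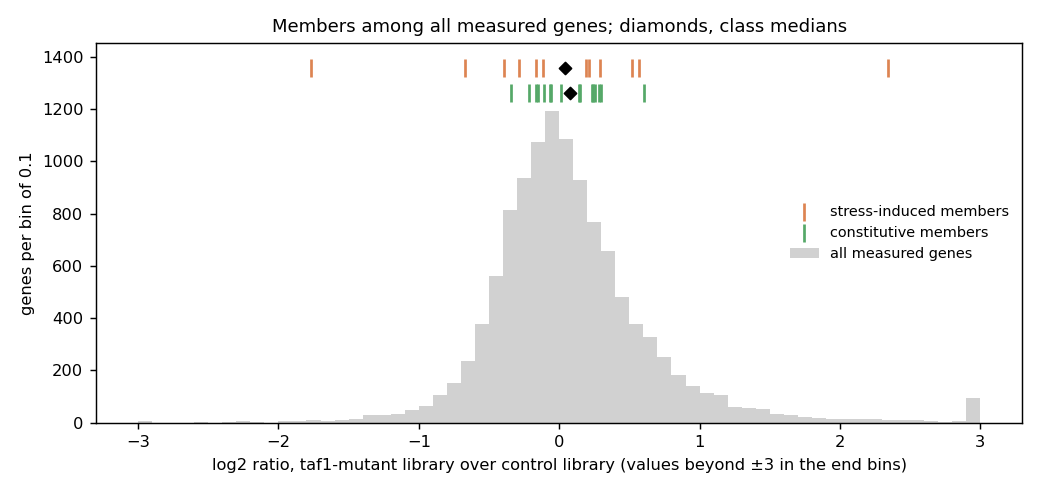
Number of measured genes (y axis) per bin of log2 ratio of the taf1-mutant library over the control library (x axis, TMM scaling), with the measured stress-induced and constitutive members as coloured ticks above and the median of each class as a black diamond. The class medians, 0.04 and 0.08, lie next to each other near the peak of all genes.

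Among the stress-induced genes, the *Hsp70* copies at cytological positions 87A and 87C, on chromosome 3R of BDGP6, had few counted reads in both libraries. *Hsp70Aa* and *Hsp70Ab*, the pair at 87A (3R:11954163-11960909), were listed at 0. The 4 copies at 87C (3R:12465453-12511461) had 28 reads together in control and 54 in the mutant library. This is 1.67 CPM (95% Poisson interval 1.11 to 2.42) and 2.00 CPM (1.505 to 2.61), a log2 ratio of 0.26 (-0.42 to 0.97), which turned to -0.0057 with total reads and to -0.07 if scaled to the qPCR references. Of all reads of the HSP70 family the copies took 0.0537% (0.0357 to 0.0775) in control and 0.0553% (0.0415 to 0.0721) in the mutant library. In these counted reads no difference between the libraries was detectable at this depth, and the interval of the ratio reaches from 0.746-fold to 1.97-fold. *Hsp68*, a heat-inducible relative, was better measured at 103 CPM in control (1718 reads) and 91.4 CPM in the mutant library (2464 reads), a log2 ratio of -0.17 (-0.26 to -0.08). Its share of the HSP70 reads was 3.29% (3.14 to 3.45) and 2.52% (2.43 to 2.62), so the mutant library held relatively less *Hsp68*.

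The reads at 87C were divided differently among the copies. *Hsp70Bb* had 20 reads in control and 9 in the mutant library, a log2 ratio of -1.77 (-3.16 to -0.64). *Hsp70Bc* had 3 and 27 reads, a log2 ratio of 2.34 (0.78 to 4.85). These were 2 of the 4 calls among the members, and they ran in opposite directions. Each copy reached the limit of 20 reads only through the library where it was high, so no conclusion is drawn from these calls. *Hsp70Ba* had 4 and 13 reads and *Hsp70Bbb* had 1 and 5, below the limit of 20. As a share of the 87C reads, *Hsp70Bb* went from 71.4% (51.3 to 86.8) to 16.7% (7.92 to 29.3) and *Hsp70Bc* from 10.7% (2.27 to 28.2) to 50% (36.1 to 63.9), and neither pair of intervals overlaps. The copies are nearly identical in sequence, and how the counting treated reads that match several of them is not stated, so the values of single copies are uncertain, and if such reads were dropped the zeros at 87A and the sum at 87C understate the level. The locus lies on chromosome 3, where the *taf1* allele and the other alleles of the mutant stock cannot be told apart.

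**Figure D3:**
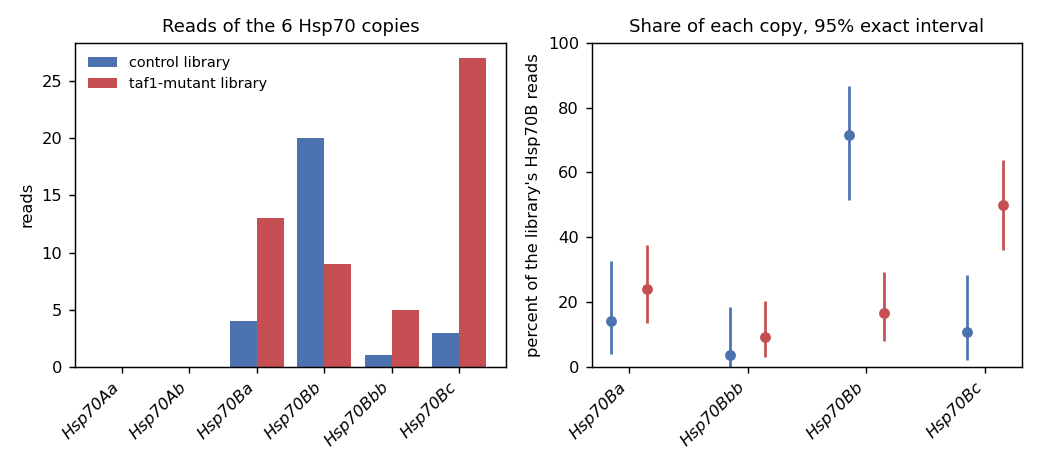
Left, reads (y axis) of each of the 6 Hsp70 copies (x axis) in the control library and the taf1-mutant library; right, the percent of each library's Hsp70B reads that came from each of the 4 copies at 87C, with exact 95% binomial intervals. Hsp70Bb leads in the control library at 71.4% and Hsp70Bc in the mutant library at 50%, while the totals are 28 and 54 reads.

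The small heat shock protein genes lie side by side at 67B on chromosome 3L, within 14.2 kb (3L:9371511-9385694, BDGP6), together with *Hsp67Bb*, which is named for the cluster (*CG4456* in the current annotation). *Hsp26* had 83.6 CPM in control (1400 reads) and 119.9 CPM in the mutant library (3232 reads), or 1.43-fold (1.35 to 1.53). *Hsp23* had 31.5 CPM (528 reads) and 46.8 CPM (1262 reads), or 1.49-fold (1.34 to 1.65). Both stayed just under the 1.5-fold limit, at percentiles 83.7 and 85.3 of all measured genes. Both ratios kept their sign under every scaling tried but became smaller with some. The log2 ratio of *Hsp26*, 0.52, was 0.26 with total reads and 0.20 if scaled to the qPCR references. That of *Hsp23*, 0.57, was 0.31 and 0.25. *Hsp27*, between 64.4 CPM (1079 reads) and 73.6 CPM (1984 reads), was nearer to equality, with a log2 ratio of 0.19 (0.08 to 0.30) that turned to -0.07 with total reads and to -0.13 if scaled to the qPCR references. *Hsp23* and *Hsp26* together made up 61.7% (59.97 to 63.4) of the small heat shock protein reads in control and 67.4% (66.2 to 68.5) in the mutant library. The neighbours within one cluster therefore differed in ratio beyond counting error. Of the fat body markers 6 of 10 were higher and 0 lower, beside 12.8% and 6.16% of all measured genes (4 and 0 with total reads, beside 7.00% and 19.1%). Of the higher ones, *Lsp2*, *Lsp1alpha*, *Fbp1* and *Fbp2* had at most 6.98 CPM in control. The summed level in the mutant library was at 142% of control, and most of it came from *Rfabg* (*apolpp*, 833 and 1390 CPM). The part of the fat body in the small heat shock protein values was not tested.

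The remaining genes of the cluster were low. *Hsp67Ba* shares 1316 of its 1733 exonic bases with other annotated exons, on either strand. It had 1.91 and 2.34 CPM (32 and 63 reads), and *Hsp67Bc* 5.13 and 4.75 CPM (86 and 128 reads). Both intervals of the ratio include equality. *Hsp67Bb* was called lower, at 10.3 CPM in control (173 reads) and 6.49 CPM in the mutant library (175 reads), a log2 ratio of -0.67 (-0.98 to -0.36). The annotation lets *Hsp67Bb* share 1900 of its 2109 exonic bases with *Hsp22*, so 209 bases are its own. *Hsp22*, which codes for a small heat shock protein of mitochondria, shares all of its 1900 exonic bases with *Hsp67Bb* and was listed at 0 in both libraries. Over the table, 356 of 373 protein-coding genes whose exonic bases are all shared with another gene were listed at 0 (95.4%), beside 16.6% of the 9135 that share none. The level of *Hsp22* and the part of it in the row of *Hsp67Bb* can therefore not be read from these values. *l(2)efl*, a small heat shock protein gene on chromosome 2R, was also listed at 0, although only 75 of its 741 exonic bases are shared. Outside the name rule, the small heat shock protein genes *CG14207* and *CG4461* were at log2 ratios of 0.09 and 0.15 (turning to -0.17 and -0.11 with total reads), and *CG7409* and *CG13133* were listed at 0.

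**Figure D4:**
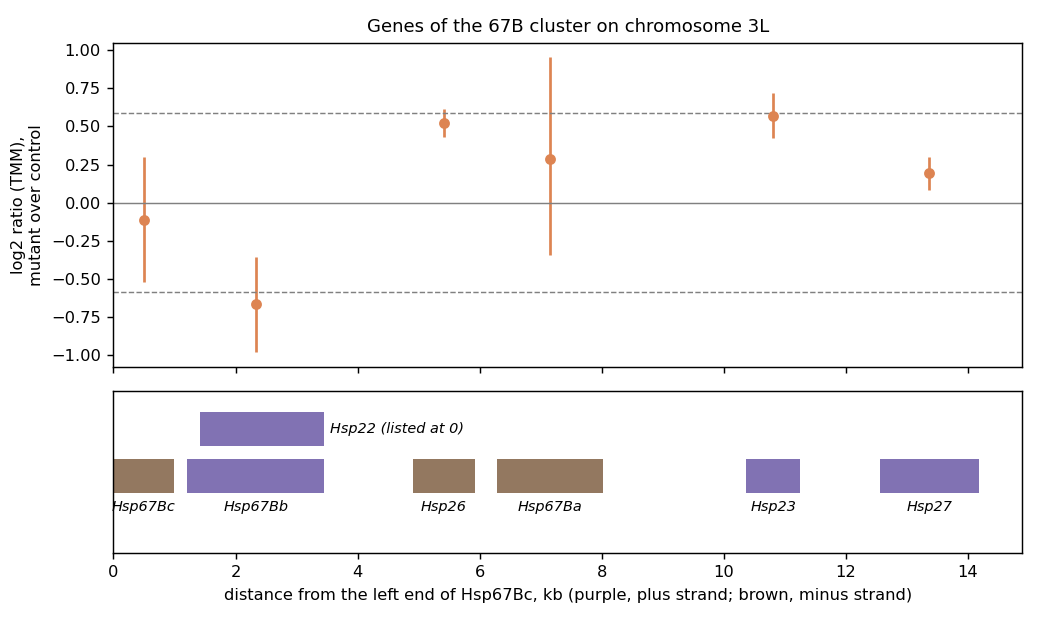
Top, log2 ratio of the taf1-mutant library over the control library (y axis, TMM scaling, exact 95% counting intervals, dashed lines at 1.5-fold) for the genes of the 67B cluster, drawn at the middle of each gene; bottom, the genes to scale by distance from the left end of Hsp67Bc (x axis, kb), coloured by strand. Hsp26 and Hsp23 are the highest points, Hsp67Bb is the lowest, and Hsp22, listed at 0, lies inside Hsp67Bb.

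*Hsp83*, the cytosolic HSP90, was the most abundant stress-induced member, with 1266 CPM in control (21212 reads) and 1469 CPM in the mutant library (39603 reads). Its log2 ratio of 0.21 (0.19 to 0.24) turned to -0.05 with total reads and to -0.11 if scaled to the qPCR references, but its share of the chaperone reads was larger in the mutant library whatever the scaling, at 15.4% (15.3 to 15.6) against 14.3% (14.1 to 14.4). *Hop*, which hands clients from HSP70 to HSP90, was at -0.17 (-0.26 to -0.08), from 103 to 92.0 CPM. It was at -0.43 with total reads and at -0.49 if scaled to the qPCR references. *Hsf* itself had 62.0 CPM (1038 reads) and 59.3 CPM (1599 reads). On the TMM scale its ratio of -0.06 (-0.18 to 0.05) did not differ from equality by more than counting error. The ratio of *Hsf* was -0.33 with total reads and -0.39 if scaled to the qPCR references, so this depends on the scaling. The heat shock noncoding RNA *Hsromega*, which is not a member, had a log2 ratio of 0.22 (0.15 to 0.29) that turned to -0.05 with total reads.

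Of the constitutive HSP70 genes, *Hsc70-4*, the main cytosolic HSP70 of unstressed cells, led all members in both libraries. It had 1839 CPM in control (30817 reads) and 2239 CPM in the mutant library (60361 reads), a log2 ratio of 0.28 (0.26 to 0.30) that stayed above 0 with total reads (0.02) and turned to -0.04 with the qPCR reference genes. It supplied 20.7% (20.5 to 20.9) of the chaperone reads in control and 23.5% (23.3 to 23.7) in the mutant library. The mitochondrial *Hsc70-5* had nearly the same ratio, 0.29 (0.25 to 0.34), from 433 to 532 CPM, and *Hsc70-1* was at 0.24 (0.19 to 0.29), from 286 to 339 CPM. With the qPCR reference genes *Hsc70-5* turned to -0.03 and *Hsc70-1* to -0.08, and with total reads *Hsc70-1* turned to -0.02. *Hsc70-2*, at 452 and 419 CPM, had a ratio of -0.11 (-0.15 to -0.06), and *Hsc70Cb*, the HSP110 that resets HSP70, was at -0.06 (-0.12 to 0.01), from 198 to 190 CPM. The cognates were thus split between 3 genes above the typical gene and 2 at or slightly below it.

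The HSP60 genes differed from each other in ratio. *Hsp60* (*Hsp60A* in the current annotation, FBgn0015245, X:11108482-11112308) codes for the mitochondrial chaperonin found throughout the body. It had 294 CPM in control (4921 reads) and 445 CPM in the mutant library (12008 reads), which is 1.52-fold (1.47 to 1.57) and places it at percentile 86.3 of all measured genes. The call was lost with scaling by total reads (log2 ratio 0.34), by the authors' own factors (0.56) or by the qPCR reference genes (0.28), but the ratio remained above 0 in each. *Hsp60B*, which male flies need to finish sperm, had 733 and 662 CPM (12285 and 17836 reads), a log2 ratio of -0.15 (-0.18 to -0.11). *Hsp60C*, which is also needed in spermatogenesis, had 985 and 993 CPM, a ratio of 0.01 (-0.02 to 0.04) that took the other sign with total reads, the authors' own factors and the qPCR reference genes. These testis-linked copies outnumbered *Hsp60* in both libraries. They made up 85.4% (85.0 to 85.8) of the HSP60 reads in control and 78.8% (78.4 to 79.1) in the mutant library, and *Hsp60* 14.6% (14.2 to 14.98) and 21.2% (20.9 to 21.6). These shares do not depend on the scaling, and their intervals do not overlap. Of the 16 measured testis markers 5 were higher and 0 lower, beside 12.8% and 6.16% of all measured genes (4 and 4 with total reads, beside 7.00% and 19.1%). The higher ones were *Mst84Da*, *Mst84Db*, *Mst84Dc*, *Mst84Dd* and *Mst87F*, and the median log2 ratio of the list was -0.01. Of these, *Mst84Da* had 2 reads in control and 118 in the mutant library, and shares 75.1% of its exonic bases with another gene. The summed level in the mutant library was at 109% of control, and the part of the testis in the HSP60 values was not tested. *Hsp60D* was listed at 0. Of the relatives of the co-chaperonin HSP10, *CG11267* was at 0.42 (0.28 to 0.56) and *CG9920* at 0.07 (0.03 to 0.11), the latter at -0.19 with total reads.

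The CCT chaperonin folds actin and tubulin. The name rule took 3 of its 8 subunits, *T-cp1* (58.4 and 69.6 CPM), *Tcp-1zeta* (69.2 and 76.8 CPM) and *Tcp-1eta* (62.4 and 69.0 CPM), with log2 ratios of 0.25, 0.15 and 0.14, and all 3 turned below 0 with total reads. The other 5 subunits carry other names in the table. Of these *Cct5* was called higher at 0.59 (0.49 to 0.69), from 63.2 to 95.05 CPM, *CG7033* (*CCT2*) was at 0.55, *CG5525* (*CCT4*) at 0.48, *CG8258* (*CCT8*) at 0.34 and *Cctgamma* (*CCT3*) at -0.02. *Cct5* was at 0.33, under the limit, with total reads. Over the 8 subunits the median log2 ratio was 0.30, with 1 higher and 0 lower (12.5% called, beside 19.0% of all measured genes). Their summed level went from 542 to 678 CPM (0.32, 0.29 to 0.36), or 0.06 with total reads and -0.0018 if scaled to the qPCR references. The subunits, all of which are needed in each ring, did not keep their proportions. *Cct5* took 11.6% (11.0 to 12.3) of the CCT reads in control and 14.0% (13.5 to 14.5) in the mutant library, and *Cctgamma* 13.9% (13.2 to 14.6) and 10.9% (10.5 to 11.4). Prefoldin, which delivers clients to CCT, had 0 of 6 subunits called and a median log2 ratio of 0.17, from 0.05 to 0.51.

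The J-domain members, which start the HSP70 cycle, lay mostly below the typical gene. *mrj*, related to human DNAJB6, had 342 CPM in control (5724 reads) and 269 CPM in the mutant library (7252 reads), a log2 ratio of -0.34 (-0.39 to -0.29). *DnaJ-1*, the fly HSP40, had 244 and 199.7 CPM (-0.29, -0.35 to -0.23), and *Droj2* 707 and 609 CPM (-0.21, -0.25 to -0.18). *DnaJ-H*, which shares 509 of its 2233 exonic bases with other annotated exons, ran the other way, from 274 to 322 CPM (0.23, 0.18 to 0.28). It was at -0.03 with total reads. None of the 4 reached 1.5-fold, although *mrj* was called lower with total reads (-0.61) or the qPCR references (-0.67), and *DnaJ-1* with the latter (-0.61). As a group they took 17.6% (17.5 to 17.8) of the chaperone reads in control and 14.7% (14.6 to 14.8) in the mutant library. Within the group *DnaJ-H* went from 17.5% (17.0 to 18.0) to 22.99% (22.6 to 23.4) of the J-domain reads, and *mrj* from 21.8% (21.3 to 22.3) to 19.2% (18.8 to 19.6). *DnaJ-60* was listed at 0, and all of its 1472 exonic bases are shared with another gene. *stv* (starvin), a BAG-domain protein that works with HSP70 in muscle, had 169.6 CPM (2842 reads) and 129 CPM (3476 reads). The muscle markers had 3 of 15 higher and 0 lower, beside 12.8% and 6.16% of all measured genes (1 and 2 with total reads, beside 7.00% and 19.1%). They summed to 119% of control, and the part of muscle in the value of *stv* was not tested. *stv* had a log2 ratio of -0.40 (-0.47 to -0.32), the lowest of the members with more than 1000 reads, at percentile 15.1 of all measured genes. It was called lower with total reads (-0.66) or the qPCR references (-0.72).

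Of 13 HSP90 and HSP70 co-chaperones outside the name rule, 1 was higher and 1 lower (15.4% called, beside 19.0% of all measured genes), with a median log2 ratio of -0.04. With total reads 0 were higher and 4 lower (*HIP-R*, *CHIP*, *Tpr2* and *CG10973*), beside 7.00% and 19.1% of all measured genes. *Dpit47*, which binds HSP90, was higher at 0.70 (0.47 to 0.94), from 208 to 544 reads, and *HIP-R*, which binds HSP70, was lower at -1.04 (-1.20 to -0.89), from 769 to 600 reads. *HIP-R* has a close relative, *HIP*, which was at -0.01, and values of such similar genes are uncertain. Of 25 other J-domain genes, 23 were measured, with a median of 0.0050. Of these, 1 was higher (*wus*, 1.03) and 1 lower (*CG14650*, -0.62), or 8.70% called beside 19.0% of all measured genes. With total reads 1 of the 23 was higher and 5 were lower (*CG14650*, *Csp*, *aux*, *CG2790* and *CG11035*), beside 7.00% and 19.1% of all measured genes. *Dpit47* was at 0.44, under the limit, with total reads. The HSP90 relatives of mitochondria and the endoplasmic reticulum, *Trap1* and *Gp93*, were at -0.08 and -0.02.

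Set per length of transcript, the order of the members was much alike in the libraries. In control it ran from *Hsc70-4* (786 CPM per kb) over *Hsp60C* (470.5), *Hsp83* (446), *Droj2* (380.3) and *Hsp60B* (333) to *Hsf* (21.8) and the *Hsp70* copies (at most 0.51). In the mutant library *Hsc70-4* (957) was followed by *Hsp83* (518) and *Hsp60C* (474), which had changed places. In control the neighbours whose intervals overlapped were *mrj* and *Hsc70-5*, *Hsp60* and *DnaJ-1*, *DnaJ-1* and *Hsc70-1*, *Hsp68* and *Hsp27*, *Hsp23* and *Tcp-1zeta*, *Tcp-1eta* and *T-cp1*, and *Hsp67Ba* and *Hsp70Bb*. In the mutant library *Hsp60* (190.2) stood beside *Hsc70-2* (193) and *Hsc70-5* (186), and its interval overlapped that of both. *Hsp26* went from 84.9 to 122 and stood beside *mrj*, which went from 155 to 122. The other overlapping neighbours in the mutant library were *DnaJ-H* and *Hsc70-2*, *Hsp23* and *Hsp27*, *Hsp27* and *stv*, *Hsp68* and *Tcp-1zeta*, and *T-cp1* and *Tcp-1eta*. The stress-induced class thus holds one of the most abundant members, *Hsp83*, and the 5 lowest of the measured members.

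**Figure D5:**
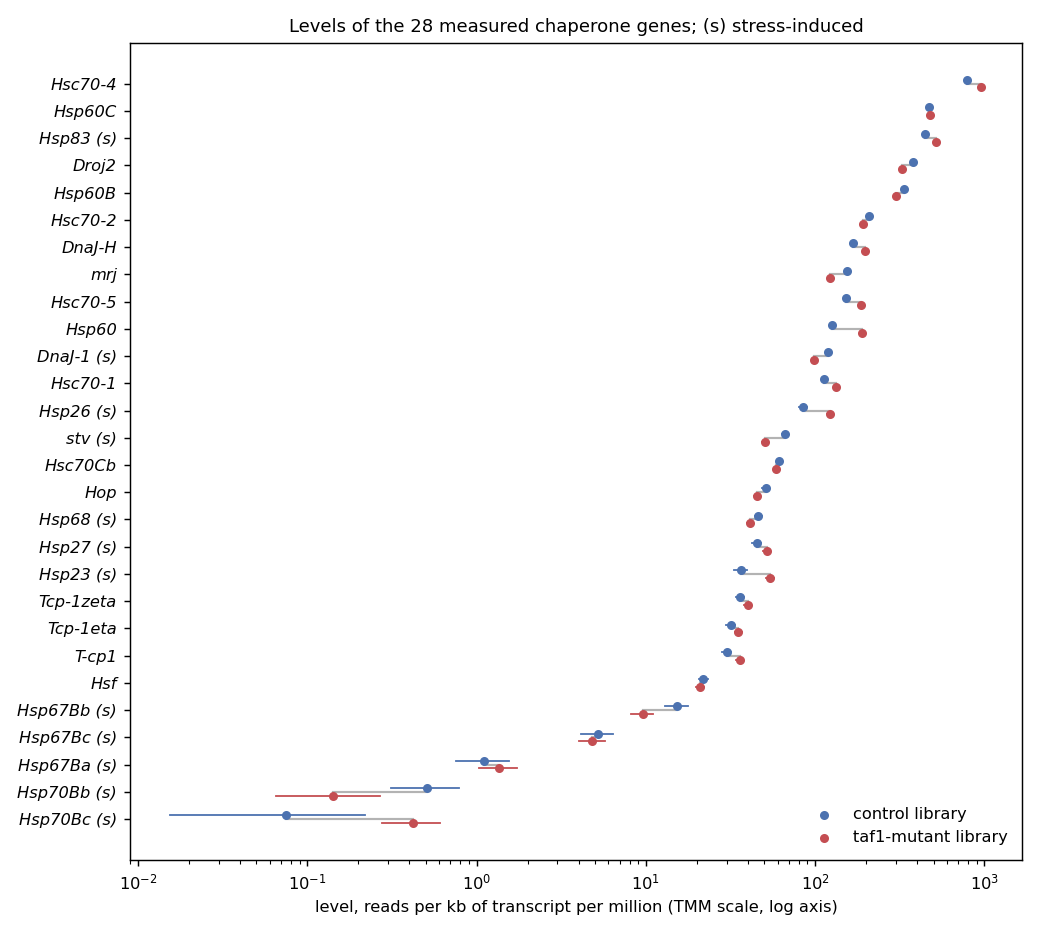
Level per length (x axis, CPM per kb of transcript on the TMM scale, log axis) of each of the 28 measured chaperone genes (y axis, ordered by the control library) in the control library and the taf1-mutant library, with 95% Poisson intervals of the counts. The genes span from below 1 for the Hsp70 copies to 957 for Hsc70-4, and most pairs of points lie close together.

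In these libraries the log2 ratio fell with transcript length over all measured genes (Spearman's rho across genes -0.31 over 11564 genes, which are not independent), with -0.01 over the 28 measured members and -0.14 over the 23 of them with at least 1000 reads. Against the 200 genes nearest in transcript length, *Hsp60* was at 0.62, *Hsp23* at 0.42, *Hsp26* at 0.40, *Hsp83* at 0.30, *mrj* at -0.31 and *stv* at -0.36, and the sign turned for *Hsp60C* (-0.01), *Hsc70Cb* (0.0061) and *Hsf* (0.02). The median of the stress-induced class turned to -0.07 by this measure, and that of the constitutive class was 0.07. By chromosome, the 19 measured members on chromosome 3, where the mutant flies carry the *taf1* chromosome, had a median log2 ratio of 0.14 (1 higher, 2 lower). The 9 on other chromosomes had a median of 0.01 (1 higher, 0 lower). The calls were 15.8% and 11.1% of these members, beside 19.0% of all measured genes. With total reads the medians were -0.12 and -0.25. The same split of all genes is not given here, and an effect of the chromosome was not tested.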

How the data were processed

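Total RNA of whole flies was prepared with a stranded mRNA kit and sequenced on an Illumina HiSeq, per the labels and the study's methods, and the submitters' processing notes name genome build BDGP6. No source used here gives the aligner, the counter or the annotation release. In the deposited table each value is a signal, made by the authors from read counts with a single factor for each library. Each was divided by the smallest positive value of its column (1.31 and 0.794), which gave whole reads for 100% of values within 0.001 of a read. With 0 residual degrees of freedom a count model could not be fitted, and the design, written for counts or recovered reads, was applied to the recovered reads.

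Reads were scaled by TMM (mutant library 1.61 times the control library) in Python 3.11.15 with scipy 1.17.1, and this ratio was checked against edgeR 4.0.16. The calculations were tested on simulated reads. Log2 ratios used a prior count of 0.5, and calls used the ratio without it. Intervals are exact 95% intervals (conditional binomial for ratios, Poisson for levels, Clopper-Pearson for shares). They cover counting error only, and PCR reads without molecular identifiers are not separate molecules. Transcript lengths, shared exonic bases and positions come from an Ensembl annotation of BDGP6, which matched 17415 names, older ones through RefSeq synonyms. Other scalings, read minimums (1 and 50), a prior count of 2, fold limits, a correction for length and other class definitions were tried. Summing the *Hsp70* copies, and leaving them out with *Hsp67Bb*, were added after seeing the data. The genes, classes, lists and the rule for named genes (every measured member, and called genes of the other lists) were chosen with earlier results of these data known. The other genes of the CCT, prefoldin, HSP10 and small heat shock protein lists, and *HIP*, *CHIP*, *Tpr2*, *CG10973*, *Csp*, *aux*, *CG2790*, *CG11035*, *Trap1*, *Gp93* and *Hsromega*, were named after their values were seen.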

Additional observations from a re-analysis of the deposited data

How the results depend on the processing

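With total reads, 1 member was higher and 4 were lower, and the median log2 ratio of the constitutive class turned to -0.19 and that of the stress-induced class to -0.22, beside the shift of -0.26 in every ratio. With the qPCR reference genes these were 1, 5, -0.25 and -0.28. The authors' own factors gave 1 higher member. The sign turned for 8 of the 28 measured members with total reads, 11 with the qPCR reference genes, 1 with the authors' own factors and 0 with the median of ratios or the upper quartile. A minimum of 50 reads, and likewise a fold limit of 2, left 1 higher and 1 lower, and no fold limit gave 13 and 10. With *Hsp83*, *DnaJ-1*, *stv*, *l(2)efl* and *Hsp67Bb* moved to the constitutive class, its median was -0.022 and the difference between the class medians 0.26, in place of -0.04. This difference also turned above 0 with a minimum of 1 read (0.13) and with the *Hsp70* copies summed or left out (0.12), and was -0.13 against genes of like length and -0.11 without testis-linked members. Chosen after seeing the data, the sum of the *Hsp70* copies in place of single copies gave 1 higher and 1 lower, and leaving out these copies and *Hsp67Bb* gave 1 and 0. Of 410 values of single members under all alternatives, 381 kept their side of the limits, 5 lost a call, 24 gained one and 0 reversed while called. Read minimums, class definitions, and the summing or leaving out of members cannot change the call of a member still listed. Their rows are among the 381, which is therefore no measure of stability. Most of the 24 gains came from dropping the fold limit. No paired analysis was possible because each genotype has 1 library. Depth limits the *Hsp70* copies, *Hsp67Ba* and *Hsp67Bc*, and the lack of replicates limits every value.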
